A study of Drosophila simulans and Drosophila kikkawai and Drosophila takahashii with 176 samples.

Results

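Of 17727 genes measured in Drosophila melanogaster, 6 encode proteins known from the ejaculatory duct or the ejaculatory bulb of the male: Dup99B, Est-6, Gld, Ebp, EbpII and EbpIII. They were chosen by gene identifier from what the proteins are known for, with earlier results of these data known, and all 6 were found. RNA came from accessory glands (AGs) and testes dissected from pools of about 25 adult males of mixed stage. For each organ there were 4 libraries of poly(A)-selected RNA, of which 2 came from the strain ED10 (AG libraries 30 and z21, testis libraries 84 and z22) and 2 from the genome reference strain y; cn bw sp (AG libraries 109 and 111, testis libraries 108 and 110). The y; cn bw sp flies carry the marker mutations in the strain's name, and neither strain carries a transgene in the labels. No treatment was applied, and the organs were taken whole, so neither the duct nor the bulb was a labelled sample. In the AG, the dissector and the sequencing instrument differed between the strains, so their part in a strain difference cannot be told apart from the strain.

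Sperm and the secretions of the paired accessory glands meet in the ejaculatory duct, a secretory tube that continues into the ejaculatory bulb. The duct adds its own enzymes, peptides and antimicrobial peptides to the ejaculate, and the bulb makes proteins that form the mating plug in the female. In whole-organ RNA, fewer cells of a type and less RNA per cell cannot be told apart.

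The members differ in size and place, given here in the coordinates of the release 6 assembly. Dup99B (FBgn0250832, 3R:29715068-29715377, minus strand) encodes a short duct peptide of 54 codons with a C-terminal end related to that of the sex peptide. Est-6 (FBgn0000592, 3L:12188818-12190705, plus strand, 2 exons, 544 codons) encodes esterase 6, a carboxylesterase that males pass to females. Gld (FBgn0001112, 3R:7252063-7265703, minus strand, 4 exons, 625 codons) encodes glucose dehydrogenase, an enzyme of the GMC oxidoreductase family. Ebp (FBgn0004181, 2R:25175126-25176715, 377 codons) encodes the mating plug protein of the bulb known as PEB-me. EbpII (FBgn0011694, 2R:25173568-25174230, 66 codons) lies on the same minus strand 895 bp from Ebp. EbpIII (FBgn0011695, 2R:24026172-24027518, plus strand, 126 codons) encodes a small protein of the insect chemosensory protein family. That protein is known from the bulb and from other tissues.

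Values are TPM as the authors named them, a measure of transcript abundance per unit of length, although the values of a library summed to between 1245350 and 1959870 for AG libraries and to between 1070170 and 1275870 for testis libraries. Read depth is not in the tables, so no counting interval was given. Of 16 AG secretory markers, 16 were higher in the AG, and of 16 testis germline markers, 16 were lower there. Markers of the other organ were present in each strain and at higher levels in y; cn bw sp. Germline markers summed to 15.4 and 16.9 TPM in the ED10 AG libraries, against 637 and 916 TPM in those of y; cn bw sp, and AG markers summed to 64.8 and 172 TPM in ED10 testis libraries, against 2052 and 4923 TPM in y; cn bw sp testis libraries. Muscle markers, 12 in number, summed to 639 to 1839 TPM in AG libraries and to 613 to 1644 TPM in testis libraries. Of the highest genes of the lists in the AG, Mst57Db and Mst57Da reached 220379 and 97716 TPM, Mst87F and Mst77F 199 and 185 TPM, and Act57B and Mlc2 566 and 298 TPM. Fat body markers (7 genes, led by Obp99b and apolpp) summed to at most 39.3 TPM, neuronal markers (6, led by nSyb and elav) to at most 11.7 TPM, hemocyte markers (4, led by Pxn and NimC1) to at most 22.2 TPM and cuticle markers (3, led by Cpr49Ae and Cpr67Fa1) to at most 2.58 TPM in an AG library.

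**Figure D1:**
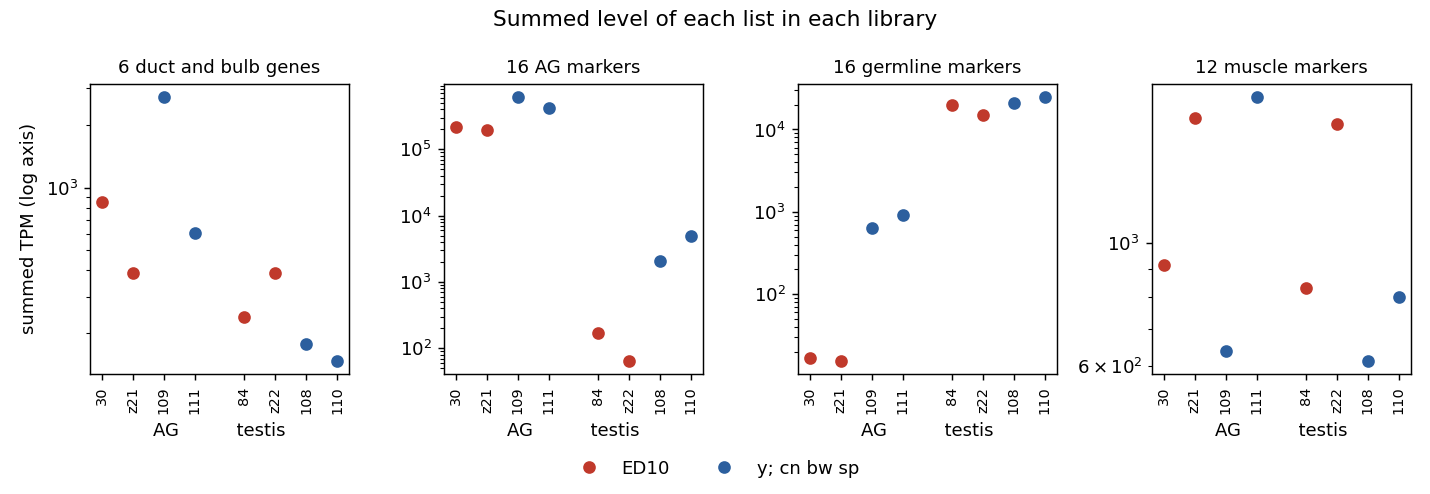
Summed TPM (log axis) of 4 gene lists in each library, with the 4 AG libraries left of the 4 testis libraries and ED10 (red) left of y; cn bw sp (blue). Germline markers were at 15.4 and 16.9 TPM in ED10 AG libraries, below the 637 and 916 TPM in those of y; cn bw sp, and muscle markers were highest in AG libraries z21 and 111 and in testis library z22.

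The first comparison asked how each gene's level differed between the AG and the testis. The products of the duct, Dup99B, Est-6 and Gld, were higher in the AG, the bulb genes Ebp and EbpII did not pass the test in either direction, and EbpIII was lower in the AG than in the testis. Of the 6 genes 3 were thus called higher, where 17.0% of all 13681 genes tested were, and 1 was called lower, where 52.6% were (limma on log2(TPM + 1), adjusted p below 0.05 over all genes tested). In 3 of the 6 genes every AG library lay above every testis library, which was so in 12.1% of all genes tested. In 0 of the 6 every AG library lay below every testis library, against 46.7% of all genes. The median log2 difference, AG minus testis, was 1.72 over the 6 genes and -0.94 over all genes tested. The median of all genes moved to -1.05 when libraries were rescaled to equal totals and to -0.71 with median-ratio scaling.

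Dup99B had the highest mean AG level of the set. It stood at 249.7 and 230.0 TPM in the ED10 AG libraries 30 and z21 and at 1858 and 465 TPM in the y; cn bw sp AG libraries 109 and 111. In the testis it stood at 18.9 and 29.8 TPM in the ED10 libraries 84 and z22 and at 14.9 and 26.8 TPM in the y; cn bw sp libraries 108 and 110. All 4 AG libraries lay above all 4 testis libraries, and library 109 stood far above the other AG libraries. The mean was 701 ± 779 TPM in AG libraries and 22.6 ± 6.89 TPM in testis libraries (SD, n = 4 each), and by mean AG level the gene ranked 265 of all 17727. The log2 difference was 4.37 (SE 0.45, 95% interval 3.33 to 5.42, limma adjusted p = 3.8e-05), which is 5.31 above the median of all genes. Within ED10 it was 3.28 and within y; cn bw sp 5.47, with limma adjusted p of 0.0024 and 0.00012. The two-sided exact permutation test of 4 against 4 libraries gave p = 0.0286, the smallest that this design allows.

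Est-6 had the next highest mean AG level of the set. In the AG it stood at 519 TPM in library 30 and 43.8 TPM in library z21 of ED10, and at 734 TPM in library 109 and 55.2 TPM in library 111 of y; cn bw sp. In the testis it stood at 25.6 and 8.93 TPM in the ED10 libraries 84 and z22 and at 11.2 and 24.2 TPM in the y; cn bw sp libraries 108 and 110. The organs did not overlap, but in each strain 1 AG library was high and the other lay much closer to the testis. The mean was 338 ± 345 TPM in AG libraries and 17.5 ± 8.66 TPM in testis libraries (SD, n = 4 each), with a log2 difference of 3.38 (SE 0.98, 95% interval 1.13 to 5.64, limma adjusted p = 0.014; exact permutation p = 0.0286). The call was lost without library 109 (2.46, limma adjusted p = 0.057), without 108 (3.12, 0.052) and without z22 (3.03, 0.069), with no filter on low values (0.058), within ED10 (0.077) and within y; cn bw sp (0.056).

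Gld was lower in level and followed the same libraries. In the AG it stood at 53.0 TPM in library 30 and 7.46 TPM in library z21 of ED10, and at 55.1 TPM in library 109 and 5.84 TPM in library 111 of y; cn bw sp. In the testis it stood at 4.96 and 3.39 TPM in the ED10 libraries 84 and z22 and at 1.91 and 1.74 TPM in the y; cn bw sp libraries 108 and 110. Again the organs did not overlap, and the lower AG library of each strain lay near the testis values. The mean was 30.3 ± 27.4 TPM in AG libraries and 3.00 ± 1.503 TPM in testis libraries (SD, n = 4 each), and the log2 difference was 2.43 (SE 0.75, 95% interval 0.70 to 4.16, limma adjusted p = 0.019; exact permutation p = 0.0286). Leaving out library 109, 108, 110, 84 or z22 gave 1.67, 2.45, 2.41, 2.54 and 2.32 with limma adjusted p of 0.063, 0.052, 0.055, 0.058 and 0.074, and the call was also lost with no filter on low values (0.068), within ED10 (0.13) and within y; cn bw sp (0.0505).

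**Figure D2:**
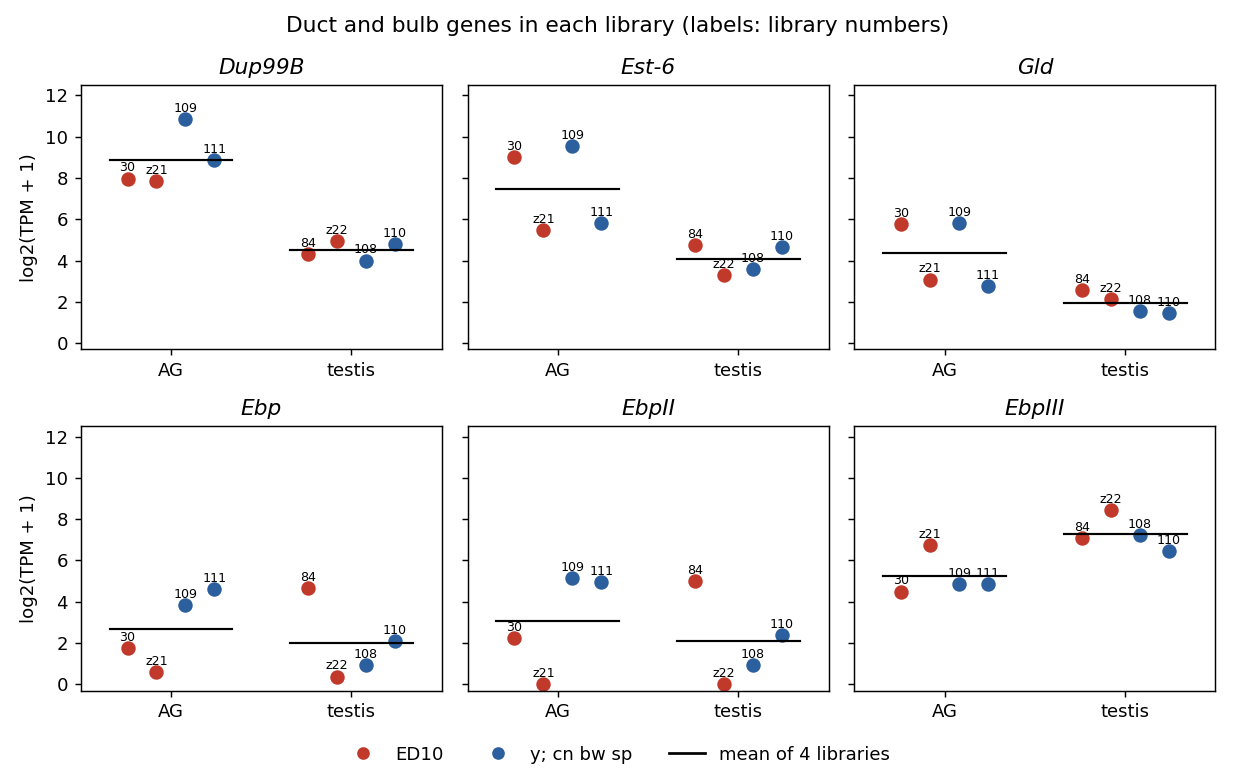
Level of each of the 6 genes as log2(TPM + 1) in each library, AG left of testis and, within an organ, ED10 (red) left of y; cn bw sp (blue); black lines are means of 4 libraries. For Dup99B, Est-6 and Gld all AG points lie above all testis points, for Ebp and EbpII the organs overlap, and for EbpIII the testis mean is above the AG mean.

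The bulb gene Ebp had a different pattern. In the AG it stood at 2.35 and 0.52 TPM in the ED10 libraries 30 and z21 and at 13.2 and 23.3 TPM in the y; cn bw sp libraries 109 and 111. In the testis it stood at 24.2 and 0.30 TPM in the ED10 libraries 84 and z22 and at 0.93 and 3.30 TPM in the y; cn bw sp libraries 108 and 110. The highest value of all was thus in a testis library of ED10, and the organs overlapped over nearly their whole range. The log2 difference, AG minus testis, was 0.67 (SE 0.85, 95% interval -1.28 to 2.63, limma adjusted p = 0.50). Without testis library 84 it was 1.74 (limma adjusted p = 0.017), and within a strain the signs were opposite, at -1.34 within ED10 (limma adjusted p = 0.37) and 2.69 within y; cn bw sp (limma adjusted p = 0.086).

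Its neighbour EbpII, another bulb product, was high and low in the same libraries. In the AG it stood at 3.73 TPM in library 30 and was listed at 0 in library z21 of ED10, and it stood at 34.6 and 30.2 TPM in the y; cn bw sp libraries 109 and 111. In the testis it stood at 31.3 TPM in library 84 and was listed at 0 in library z22 of ED10, and it stood at 0.90 and 4.27 TPM in the y; cn bw sp libraries 108 and 110. The 3 libraries above 30 TPM were both AG libraries of y; cn bw sp and testis library 84 of ED10. The log2 difference was 1.005 (SE 1.03, 95% interval -1.36 to 3.37, limma adjusted p = 0.41), and without library 84 it was 2.26 (limma adjusted p = 0.023). Within ED10 it was -1.39 (limma adjusted p = 0.44), and within y; cn bw sp it was 3.40 (95% interval 0.049 to 6.74, limma adjusted p = 0.075).

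EbpIII was the only member with a higher mean in the testis. In the AG it stood at 21.6 and 105 TPM in the ED10 libraries 30 and z21 and at 27.7 and 28.3 TPM in the y; cn bw sp libraries 109 and 111. In the testis it stood at 133.6 and 347 TPM in the ED10 libraries 84 and z22 and at 147.8 and 87.0 TPM in the y; cn bw sp libraries 108 and 110. Libraries z21 and z22, which share the names of their sequencing runs in the labels, were the highest of their organ, and AG library z21 lay above testis library 110. The mean was 45.7 ± 39.8 TPM in AG libraries and 179 ± 115 TPM in testis libraries (SD, n = 4 each), and the log2 difference was -2.06 (SE 0.53, 95% interval -3.28 to -0.85, limma adjusted p = 0.0078). That is 1.12 below the median of all genes, on the log2 scale. Without z21 and z22 it was -2.28 (limma adjusted p = 0.0012). The two-sided exact permutation test gave p = 0.0571, and 0.089 after adjustment over all genes.

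The other duct and bulb genes fixed as a list were Anp, CecA1, vvl, Abd-B, Elo68alpha and Elo68beta, of which 4 passed the filter on low values, 2 were called higher in the AG and 0 lower. Anp encodes andropin, an antimicrobial peptide of the duct, and stood at 411 and 153.5 TPM in ED10 AG libraries 30 and z21 and at 2599 and 772 TPM in y; cn bw sp AG libraries 109 and 111. Its testis values were 17.2 and 12.1 TPM in ED10 and 9.57 and 29.5 TPM in y; cn bw sp. Anp thus separated the organs without overlap, with a log2 difference of 5.17 (SE 0.53, limma adjusted p = 3.7e-05). CecA1, which encodes the antimicrobial peptide cecropin A1, averaged 41.8 ± 34.6 TPM in AG libraries and 5.67 ± 2.58 TPM in testis libraries (SD, n = 4 each), with a log2 difference of 2.45 (SE 0.32, limma adjusted p = 0.00017). The transcription factor genes vvl and Abd-B averaged 2.76 and 1.44 TPM in the AG and 1.63 and 1.65 TPM in the testis. Neither passed the test (limma adjusted p = 0.19 and 0.79). The fatty acid elongase genes Elo68alpha and Elo68beta averaged 0.264 and 0.0894 TPM in the AG and 0.53 and 0.397 TPM in the testis.

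**Figure D3:**
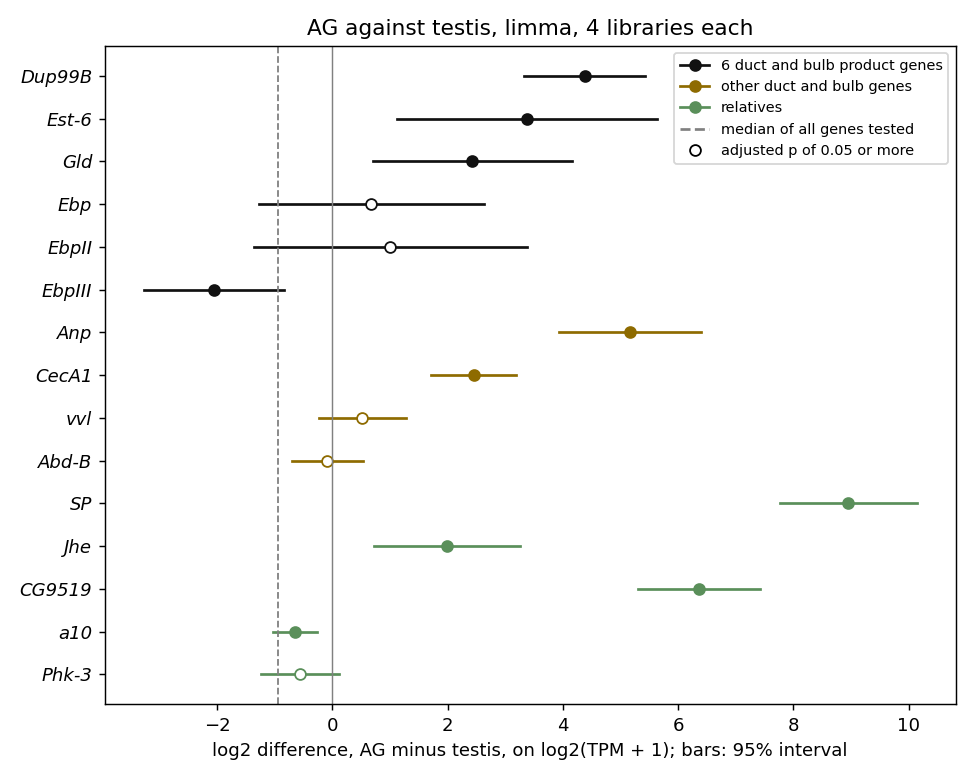
Difference between AG and testis in log2(TPM + 1) for the 6 genes (black), other duct and bulb genes (brown) and relatives (green), with 95% intervals from limma; open circles did not pass an adjusted p of 0.05. Dup99B at 4.37 and Anp at 5.17 lie near each other, Ebp and EbpII have intervals that include 0, and EbpIII at -2.06 lies left of the median of all genes, -0.94.

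Est-6 and EbpIII had a higher AG mean than each of their relatives listed here, and Dup99B and Gld did not. For Est-6 the relatives compared were Est-P, Jhe and Jhedup only. SP, the relative of Dup99B, encodes the sex peptide of the gland itself and was at 19297 ± 11713 TPM in AG libraries, against 72.2 ± 82.99 TPM in testis libraries (SD, n = 4 each). Dup99B therefore had 0.0364 and 0.0111 of the SP level in the ED10 AG libraries 30 and z21 and 0.0536 and 0.0310 of it in the y; cn bw sp AG libraries 109 and 111. In the ED10 testis libraries 84 and z22 that ratio was 1.71 and 5.93, and in the y; cn bw sp testis libraries 108 and 110 it was 0.165 and 0.147. Est-P, which lies 27 bp downstream of Est-6 on the same strand and encodes a related esterase, was at no more than 0.351 TPM in an AG library and 1.24 TPM in a testis library. The values of Est-6 were 125 to 5782 times those of Est-P in AG libraries. Jhe, which encodes juvenile hormone esterase, averaged 18.8 ± 11.0 TPM in AG libraries and 3.36 ± 1.99 TPM in testis libraries (SD, n = 4 each; log2 difference 1.98, limma adjusted p = 0.011). Jhedup was at a mean of 0.116 TPM in AG libraries and 0.195 TPM in testis libraries.

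Of 11 further GMC oxidoreductase genes found in the table, 4 passed the filter on low values. CG9519 was called higher in the AG, with 146.55 ± 92.7 TPM in AG libraries and 0.664 ± 0.748 TPM in testis libraries (SD, n = 4 each; log2 difference 6.36, limma adjusted p = 3.7e-06). In y; cn bw sp, CG9519 was higher in AG library 111 (160 TPM) than in library 109 (77.1 TPM), unlike Gld. In ED10 it was higher in AG library 30 (273 TPM) than in z21 (76.5 TPM), as Gld was. CG9518 was called lower in the AG, with a mean of 0.229 TPM there and 4.72 TPM in the testis (log2 difference -2.17, limma adjusted p = 5.5e-05). Neither CG9522 nor CG9512 passed the test, with AG means of 4.06 and 1.03 TPM and testis means of 0.328 and 0.478 TPM. The other 7, ninaG, CG9503, CG9514, CG9521, CG12398, CG12539 and CG6142, were at means of at most 0.252 TPM in the AG. CG9509 and CG9517 were not found under these symbols. Of the chemosensory protein relatives of EbpIII, a10 and CG30172 averaged 0.208 and 0.559 TPM in the AG, and 0.981 and 0.14 TPM in the testis, and a10 was called lower in the AG (log2 difference -0.65, limma adjusted p = 0.0082). Phk-3, which encodes pherokine 3, averaged 4.56 TPM in AG libraries and 6.56 TPM in testis libraries and did not pass the test (limma adjusted p = 0.12). All 3 were well below EbpIII in both organs.

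The level of the duct genes in the testis libraries was set beside that of AG secretory genes. As a percentage of the AG mean, the testis mean in ED10 was 10.2% for Dup99B, 6.14% for Est-6, 13.8% for Gld, 5.20% for Anp and 42.0% for CecA1. The 15 AG markers with at least 10 TPM in the ED10 AG were at 0.0225% to 0.0813% by the same measure (median 0.0461%). In y; cn bw sp the percentages were 1.79% for Dup99B, 4.48% for Est-6, 5.99% for Gld, 1.16% for Anp and 5.40% for CecA1. The 16 AG markers were at 0.149% to 0.933% in that strain (median 0.712%). Each of these 5 genes thus had a larger percentage than any AG marker of the list did in the same strain. The AG markers are strongly enriched in the AG, with a median log2 difference of 9.01. The percentage was not computed over all genes, so how common such values are is not known. The source of the testis values was not tested. For EbpIII the testis mean was 379% of the AG mean in ED10 and 419% in y; cn bw sp. For Ebp it was 853% in ED10 and 11.6% in y; cn bw sp, and for EbpII 839% and 7.99%. In ED10 the testis means of Ebp and EbpII rested on library 84. These are descriptions of means over 2 libraries, with no test.

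The second comparison asked whether the strains differed within an organ. In the AG 0 of the 6 genes were called different between ED10 and y; cn bw sp (limma, adjusted p below 0.05). Of all genes tested 14.4% were called, in either direction. An unadjusted p below 0.05 was found for 3 of the 6, Dup99B, Ebp and EbpII, and for 3850 of all 13681 genes tested. In the testis 0 of the 6 were called, where 4.62% of all genes were. There 0 of the 6 had an unadjusted p below 0.05, against 1881 of all genes. In the test of whether the strain effect differed between the organs, 0 of the 6 genes were called, where 10.3% of all genes were. In that test the same 3 genes had an unadjusted p below 0.05, as did 2795 of all genes. A term for the sequencing runs that z21 and z22 share was added after seeing the data. With it this test called Ebp (-4.03, limma adjusted p = 0.041) and EbpII (-4.78, 0.018). Of all genes it then called 1137 lower and 332 higher.

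For Dup99B both ED10 AG libraries lay below both y; cn bw sp AG libraries. How many of all genes show this was not counted. Of all genes called between the strains in the AG, 1587 were lower in ED10 and 381 higher (limma, adjusted p below 0.05). The log2 difference of Dup99B in the AG, ED10 minus y; cn bw sp, was -1.95 (SE 0.64, 95% interval -3.43 to -0.48, limma adjusted p = 0.087). Without library 111 it was -2.95 (limma adjusted p = 0.010), and without library 109 the smallest size over the alternatives, -0.95, was reached. Anp had the same order of libraries and a log2 difference of -2.49 (limma adjusted p = 0.067). CecA1 had it too, at -1.62, and was called lower in ED10 (limma adjusted p = 0.049). In the testis the log2 difference of Dup99B was 0.24 (95% interval -1.24 to 1.71, limma adjusted p = 0.95).

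Both ED10 AG libraries lay below both y; cn bw sp AG libraries for Ebp and for EbpII, an order that was not counted over all genes. The log2 differences of Ebp and EbpII in the AG were -3.04 (SE 1.198, limma adjusted p = 0.14) and -3.94 (SE 1.45, limma adjusted p = 0.12). Without testis library 84, whose Ebp and EbpII values were far above those of z22, the same differences passed the test with limma adjusted p of 0.022 and 0.030, and without z22 they passed with 0.024 and 0.031. Without z21 and z22 together the AG difference of EbpII was -2.82 (limma adjusted p = 0.049), and in the testis Ebp and EbpII were called higher in ED10, at 3.13 and 3.35 (limma adjusted p = 0.045 and 0.039). In these fits the lone library of a group is assumed to vary like the other groups. Germline markers were also lower in the ED10 AG libraries than in the y; cn bw sp AG libraries, at 15.4 and 16.9 TPM against 637 and 916 TPM. Ebp and EbpII were at 13.2 to 34.6 TPM in the y; cn bw sp AG libraries and at 0.90 to 4.27 TPM in the testis libraries of that strain. In the ED10 testis library 84 they were at 24.2 and 31.3 TPM. The cause of these differences was not tested.

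For Est-6, Gld and EbpIII the strain differences in the AG were -0.41 (95% interval -3.60 to 2.78), 0.13 (-2.32 to 2.57) and 0.76 (-0.96 to 2.47) on the log2 scale, with limma adjusted p of 0.89, 0.97 and 0.55. For Est-6 and Gld the sign turned with the scaling, to 0.09 for Est-6 with libraries rescaled to equal totals and to -0.52 for Gld with median-ratio scaling. For each of these 3 genes the ED10 AG libraries differed from each other by more than the strains did, with log2 ratios of library 30 to library z21 of 3.54, 2.67 and -2.24 (on TPM + 1).

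The libraries of 1 strain were therefore set side by side. The TPM of Est-6 was 11.8 times as high in library 30 as in library z21 in the ED10 AG, and 13.3 times as high in library 109 as in library 111 in the y; cn bw sp AG. Gld gave 7.10 and 9.43 times for the same pairs. Est-6 and Gld, both duct enzymes, were thus high in the same library of each strain, and the ratio of Est-6 to Gld was 9.79 and 5.87 in the ED10 AG libraries 30 and z21 and 13.3 and 9.44 in the y; cn bw sp AG libraries 109 and 111. Over the 5063 genes with an AG mean of at least 10 TPM, the median log2 ratio of library 30 to z21 was -0.12 and that of 109 to 111 was -0.74. Muscle markers ran the other way, with 913 TPM in library 30 and 1681 TPM in z21, and 639 TPM in library 109 and 1839 TPM in 111. Neuronal and cuticle markers ran as muscle markers did. AG markers ran as Est-6 and Gld did, with 219593.4 TPM in library 30, 192909.2 TPM in z21, 619366.5 TPM in 109 and 424075.8 TPM in 111. Germline, fat body and hemocyte markers ran with Est-6 and Gld in ED10 only. The part of these lists in the pattern was not tested.

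Dup99B did not follow Est-6 in ED10. Its TPM was 1.09 times as high in library 30 as in z21, and 4.00 times as high in library 109 as in 111. Anp gave 2.68 and 3.37 times, and CecA1 1.18 and 2.41 times, for the same pairs. The AG libraries in order from the highest were 109, 111, 30 and z21 for Dup99B, Anp and CecA1 alike, and 109, 30, 111 and z21 for Est-6. The bulb gene EbpII and its neighbour Sfp60F had the same order as Dup99B. How many of all genes have that order was not counted. Gld differed from Est-6 in the order of the lowest pair, 7.46 TPM in z21 and 5.84 TPM in 111. The ratio of Dup99B to Anp was 0.607 and 1.498 in the ED10 AG libraries 30 and z21 and 0.715 and 0.602 in the y; cn bw sp AG libraries 109 and 111.

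**Figure D4:**
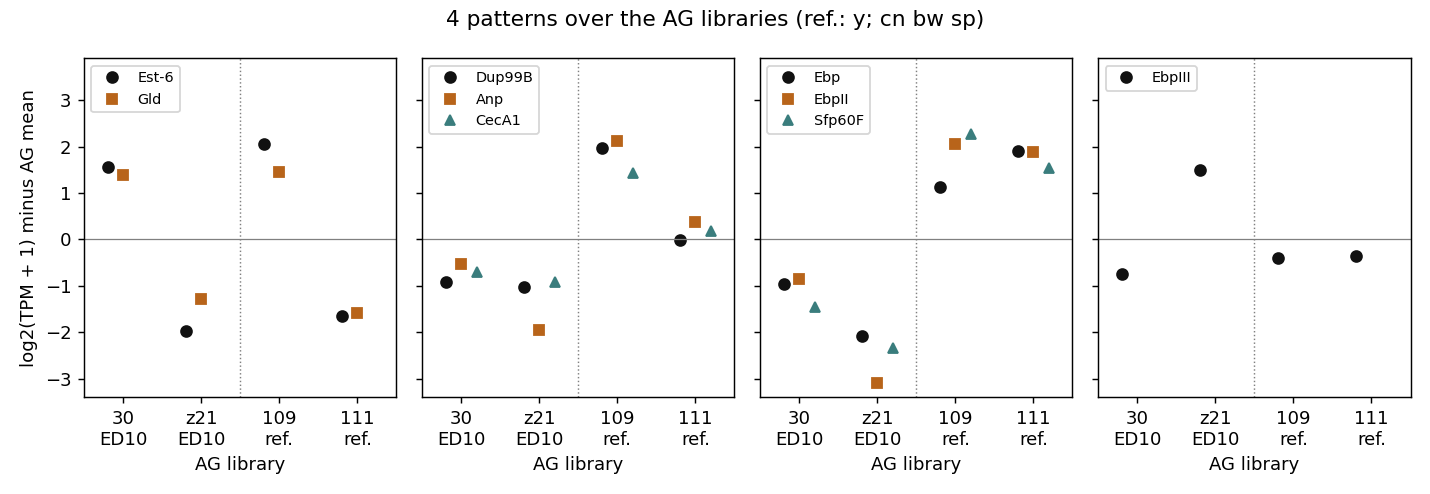
log2(TPM + 1) in each AG library minus the gene's own mean over the 4 AG libraries, with ED10 libraries left of y; cn bw sp libraries (ref.). Est-6 and Gld are high in libraries 30 and 109, and Dup99B, Anp and CecA1 are highest in library 109. Ebp, EbpII and their neighbour Sfp60F are high in both y; cn bw sp libraries, and EbpIII is highest in library z21. Library 109 is also the highest for Est-6, Gld, EbpII and Sfp60F.

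The genes whose pattern was most like that of a member were sought by Pearson's r over the 8 libraries after removal of each organ's mean, among the 5063 genes with an AG mean of at least 10 TPM. For Est-6 these were CG5162 (r = 0.98), CG17242 (r = 0.98) and CG18258 (r = 0.97), and for Gld they were CG18258 (r = 0.96), Acp54A1 (r = 0.93) and CG5162 (r = 0.92). Est-6 itself was the next gene on the list of Gld, with r = 0.90. CG18258, found for both, stood at 93.6 and 5.71 TPM in the ED10 AG libraries 30 and z21 and at 146.9 and 5.33 TPM in the y; cn bw sp AG libraries 109 and 111. These values are high and low in the same libraries as those of Est-6 and Gld. With the 4 AG libraries alone 2 of the 3 genes were again found for Est-6 and 1 of 3 for Gld. These 4 libraries are part of the 8, so the searches are not independent. Over the 4 libraries 27 and 24 genes had r above 0.9 with Est-6 and Gld, against 9 and 4 genes over the 8.

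A count chosen after the values were seen describes how many genes share that pattern. For 12 of the 5063 genes, TPM + 1 was at least 4 times as high in library 30 as in z21 and in library 109 as in 111. Besides Est-6 and Gld these were Acp54A1, CG17242, CG18258, CG33290, CG5162, CG8708, CR44391, Spn77Bb, Spn77Bc and lncRNA:CR45150. Spn77Bb and Spn77Bc are named as serpins, a family of protease inhibitors. Spn77Bb stood at 416 and 25.9 TPM in the ED10 AG libraries 30 and z21 and at 1741 and 427 TPM in the y; cn bw sp AG libraries 109 and 111. Acp54A1, named as an accessory gland protein, stood at 463 and 52.6 TPM in the ED10 libraries and at 1539 and 8.18 TPM in the y; cn bw sp libraries.

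For Dup99B the most similar genes were Obp51a (r = 0.93), CG5773 (r = 0.91) and Sfp93F (r = 0.91). Obp51a, named as an odorant-binding protein, stood at 256 and 116 TPM in ED10 AG libraries 30 and z21 and at 1399 and 249.7 TPM in y; cn bw sp AG libraries 109 and 111. For Ebp they were EbpII (r = 0.98), Sfp60F (r = 0.97) and Sfp87B (r = 0.96), and for EbpII they were Sfp87B (r = 0.99), Sfp60F (r = 0.98) and Gat (r = 0.95), which encodes a transporter of the transmitter GABA. Ebp was below the minimum level of 10 TPM and could not appear on the other lists. For EbpIII they were CG11686 (r = 0.99), SmD1 (r = 0.98), which encodes a core protein of the spliceosome, and CG14818 (r = 0.98). With the 4 AG libraries alone 0 of the 3 genes were found again for Dup99B, Ebp, EbpII or EbpIII. Over those 4 libraries 55, 442, 426 and 287 genes had r above 0.9 with these members, against 4, 4, 3 and 69 genes over the 8 libraries.

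Another gene lies beside Ebp and EbpII. Sfp60F, a gene named for a seminal fluid protein, lies 872 bp from EbpII on the far side from Ebp, and the 3 genes are on the same strand. Sfp60F stood at 2.35 and 0.817 TPM in the ED10 AG libraries 30 and z21 and at 43.6 and 25.6 TPM in the y; cn bw sp AG libraries 109 and 111. In the testis it stood at 25.5 TPM in library 84 and was listed at 0 in z22 of ED10, and it stood at 1.29 and 3.51 TPM in libraries 108 and 110 of y; cn bw sp. The 3 neighbouring genes were thus high in the same libraries, testis library 84 included. Sfp87B, also named for a seminal fluid protein and not 1 of these neighbours, had that pattern too, at 45.8 and 29.1 TPM in AG libraries 109 and 111 and 38.9 TPM in testis library 84. CG9380, the next gene on the other side of Ebp at 6912 bp, was highest in AG library z21 at 28.7 TPM and lowest in testis library z22 at 1.98 TPM.

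The genes next to the duct genes were at low or middling levels in the AG. Obp99d, 63 bp from Dup99B on the opposite strand, was at no more than 5.66 TPM in an AG library, and Obp99b, 876 bp away on the same strand, at no more than 12.3 TPM. Miox, 957 bp from Est-6, was at 31.2 and 2.43 TPM in the ED10 AG libraries 30 and z21 and at 14.8 and 17.7 TPM in the y; cn bw sp AG libraries 109 and 111. The gene thoc6 overlaps Est-6 on the opposite strand and was at 3.71 to 7.47 TPM in the AG. On the opposite strand of Gld, lncRNA:CR44338 was at 5.01 TPM in AG library 109 and at most 0.913 TPM in the others. The libraries were directional, but whether strand was used in the quantification is not given in the sources used here, so the reads of overlapping genes may not be fully separated. Obp84a and Syt4, on either side of Gld, were at most at 0.457 and 0.349 TPM in the AG. Next to EbpIII, HSPC300 on the opposite strand was at 21.1 to 37.1 TPM in the AG and 73.7 to 122 TPM in the testis.

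Together the 6 genes made up 0.0645% and 0.0311% of the library total in the ED10 AG libraries 30 and z21 and 0.139% and 0.0357% in the y; cn bw sp AG libraries 109 and 111. In the testis they made up 0.0198% and 0.0364% in the ED10 libraries 84 and z22 and 0.0145% and 0.0116% in the y; cn bw sp libraries 108 and 110. Dup99B was 29.4% of that sum in library 30 and between 59.4% and 76.5% in the other AG libraries. In library 30 the larger part was Est-6, at 2.08 times the level of Dup99B, while in libraries z21, 109 and 111 Est-6 was at 0.19, 0.395 and 0.119 times that level.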

How the data were processed

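The deposited tables hold, for each gene and library, the authors' TPM, read here as a signal because the library totals are not 1000000. Per the labels, reads of directional paired-end libraries were processed with Trimmomatic, STAR 2.5.3 and StringTie 1.3.4. A library sequenced in 2 runs has 1 column and counted as 1 replicate, and 0 columns with sample values were left out. Only the 2 D. melanogaster tables of 22 were used, since the genes of the other 10 species were not paired with these. Of 17727 identifiers 17502 had a symbol in the name table, and coordinates came from a BDGP6 annotation. Each organ and strain had 2 libraries, and whether they came from separate rearings is not stated, so p-values measure only the spread between libraries. Genes with a mean of at least 0.5 TPM were fitted with limma 3.58.1 (R 4.3.3) on log2(TPM + 1), which understates changes of low genes, with Benjamini-Hochberg adjustment, after testing on simulated data. Python 3.11 and scipy 1.17.1 gave exact permutation tests. The members, lists and tests were chosen with earlier results of these data known. The genes named are the members, the other duct and bulb genes, relatives, nearest genes, the 3 most similar genes and the 2 highest genes of each marker list. Alternatives covered the pseudocount, filters, scaling, gene type and libraries left out. Within-strain fits and a sequencing-run term were added after seeing the data.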

Additional observations from a re-analysis of the deposited data

Results flagged for a closer look

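Dixon's criterion was applied to TPM, not to log2(TPM + 1), in 20 groups of 4 libraries. The groups were 10 genes with a mean of at least 10 TPM in an organ, each in the AG and the testis. By this criterion 3 values stood far from the others of their group. Its chance rate of about 1 in 20 groups assumes normally distributed values, so the 3 flags cannot be set against it. Dup99B was at 1858 TPM in the y; cn bw sp AG library 109, and its gap to the next library was 0.856 of the range. EbpII was at 31.3 TPM in the ED10 testis library 84 (0.864 of the range). EbpIII was at 105 TPM in the ED10 AG library z21 (0.919 of the range). The strain effect differed between the organs in 0 of the 6 genes, against 10.3% of all genes tested (limma, adjusted p below 0.05). An unadjusted p below 0.05 in that test was found for 3 of the 6 and for 2795 of all 13681 genes.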

How the results depend on the processing

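Dup99B was called higher in the AG under all 19 alternatives run. The 3 genes called higher became 1 with no filter on low values, within ED10 and within y; cn bw sp, and 1 to 4 when a library was left out. The 1 gene called lower became 0 with the exact permutation test. Leaving out 1 library moved the AG minus testis difference of Ebp between -0.39 and 1.74 and of EbpII between -0.25 and 2.26. It was -0.11 for Ebp without z21 and z22, and for Ebp and EbpII -1.34 and -1.39 within ED10 and 2.69 and 3.40 within y; cn bw sp. For the strains in the AG, whether Dup99B, Ebp and EbpII were called depended on the libraries left out. With 1 library left out the AG strain differences ran between -0.36 and 1.87 for EbpIII, -2.27 and 1.44 for Est-6 and -1.39 and 1.64 for Gld. Without z21 and z22 they were -0.36 for EbpIII and 1.35 for Est-6. Rescaling gave 0.095 for Est-6 and median-ratio scaling -0.52 for Gld. In the testis, whether Ebp and EbpII were called depended on z21 and z22, without which Dup99B was at -0.082 and Est-6 at 0.60. Median-ratio scaling gave -0.016 for Dup99B, rescaling 0.019 for Est-6 and a pseudocount of 0.1 gave -0.24 for EbpII. Leaving out 1 library gave -0.17 to 0.64 for Dup99B, -1.15 to 3.13 for Ebp, -1.66 to 3.35 for EbpII and -0.82 to 0.60 for Est-6. For the difference of strain effects between organs it changed whether Dup99B, Ebp and EbpII were called. It gave -1.28 to 0.95 for EbpIII, -2.16 to 1.55 for Est-6 and -2.25 to 0.79 for Gld. A term for the sequencing runs shared by z21 and z22 was added after seeing the data. It left 3 genes called higher and 1 lower in the AG, against 2425 and 7265 of all genes. In the difference of strain effects it called 2 genes lower, against 1137 of all genes. It gave strain differences of -0.15 for EbpIII and 0.83 for Est-6 in the AG and 1.13 for Est-6 in the testis. The causes were not tested. No paired analysis was possible because the groups compared share no library numbers in the labels, and the shared runs join 1 pair of libraries only.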
